A study of Mus musculus with 24 samples.

Results

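The genes described here are the 3 peroxisome proliferator-activated receptors (PPARs), *Ppara*, *Ppard* and *Pparg*, and 7 genes of fatty acid handling, *Angptl4*, *Pdk4*, *Cpt1a*, *Plin2*, *Cd36*, *Fabp5* and *Fabp7*. They are 10 of the 24411 genes measured by bulk RNA-seq in cultured mouse glia. The 10 genes were chosen by symbol, from a list drawn up with their values in these same libraries already known, so their levels and fold changes are a description and nothing is supported with them. Cortical astrocytes were immunopanned from mice 5 days old, panned against microglia, endothelial cells and the oligodendrocyte lineage first, and microglia were collected by their surface protein Cd11b from the brains of mice 7 to 10 days old. Both were grown without serum, and the medium of every microglial culture held cholesterol, TGF-β2 and IL-34. *SOD1* G93A mice carry a mutant human *SOD1* transgene under the human gene's own regulatory sequence and had been bred onto C57BL/6J. The transgene is not limited to 1 cell type, so it was present in the cultured astrocytes and microglia alike. Quiescent cells received PBS. Activated astrocytes received 3 factors, C1q (400 ng/mL), TNFα (30 ng/mL) and IL-1α (3 ng/mL), and activated microglia received LPS (50 ng/mL), for a time not given in the sources used here. There were 7 conditions with 3 libraries each (21 in all): astrocytes of either genotype in both states, WT microglia in both states, and *SOD1* G93A microglia after LPS. *SOD1* G93A microglia in the quiescent state (3 libraries) were not analysed here.

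PPARs are nuclear receptors that bind fatty acids and their derivatives, pair with a retinoid X receptor on DNA and turn on genes of lipid uptake, storage and oxidation. Classical targets include *Angptl4*, a secreted inhibitor of lipoprotein lipase, *Pdk4*, a kinase that turns pyruvate dehydrogenase off, *Cpt1a*, which starts the entry of long fatty acids into mitochondria, and *Plin2*, a coat protein of lipid droplets. In the brain astrocytes carry most of the fatty acid oxidation, and microglia can store lipid in droplets and are restrained in culture by ligands of these receptors.

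Levels are given as reads of a gene out of every 1000000 reads that the library has on genes (RPM). Levels of the 10 genes are set against each other only per kilobase of exon (RPKM). The gene said to lead a marker list, or to be its most abundant, has the most RPM in it, whatever its length. Libraries held 2016139 to 11570122 reads on genes, with a median of 5098168. A count of 0 in a library allows up to 3 reads. Ratios of pooled reads compare the reads of a gene per total reads of the pooled libraries, not the raw reads. Their intervals cover counting error only. Fold changes are differences of log2(normalized count + 1) between 3 libraries and 3, given ± SE, and adding 1 understates the change of a gene with few reads. All genes whose mean reached 10 normalized counts were fitted together with limma, within each comparison, and a gene passed the limits at an adjusted p under 0.001 with a change of more than 2-fold. An exact permutation test of 3 libraries against 3 has 20 arrangements and cannot go below p = 0.1. The labels do not say that libraries of a condition came from separate cultures or animals, so the p-values measure only the spread between these libraries, which may be technical.

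The labelled cell types were checked against 10 markers of each. The summed level of the astrocyte markers was 4158 to 6228 RPM in astrocyte libraries and 139 to 233 RPM in microglial ones. The summed level of the microglial markers was 154 to 359 RPM in astrocyte libraries, with none of the 10 at 0 in any astrocyte condition, and 3263 to 10560 RPM in microglial ones. Library 3 of *SOD1* G93A LPS microglia stood apart, with 5268 RPM of microglial markers against 3699 and 3572 RPM in its 2 partners. Fewer cells of a type and less RNA per cell cannot be told apart in bulk samples.

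*Ppard*, the PPAR found in most tissues, was the most abundant of the 3 receptors per length in each of the 7 conditions, at 4.97 to 11.0 RPKM. It stood at 37.7, 44.0 and 48.7 RPM in quiescent WT astrocytes and at 85.8, 78.6 and 82.6 RPM in activated ones. In WT microglia it stood at 41.7, 32.5 and 37.8 RPM when quiescent and 71.4, 61.2 and 63.3 RPM after LPS. All activated libraries of both cell types lay above all quiescent ones. The fold change was 1.02 ± 0.11 (log2) with LPS, which passed the limits, and 0.95 ± 0.12 with the astrocyte factors, which stayed under the fold limit. The LPS value sat on the fold limit and lost its call with quantile normalization (0.93), library totals (0.81), DESeq2 (1.00) and edgeR (0.99), and without library 2 of quiescent WT microglia (0.94) or library 1 of WT LPS microglia (0.97). Without library 3 of quiescent WT astrocytes, the deepest of its condition, the astrocyte value was 1.06 and passed. *SOD1* G93A and WT libraries overlapped in quiescent astrocytes and in LPS microglia, and in activated astrocytes 69.3 to 77.9 RPM in *SOD1* G93A stood against 78.6 to 85.8 RPM in WT. On the normalized counts of that comparison the genotypes overlapped there too, with a fold change of −0.12 ± 0.08.

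*Ppara*, the receptor best known for fatty acid oxidation in liver, was read in every astrocyte library and close to absent in microglia. Quiescent WT astrocytes had 5.46, 4.40 and 5.18 RPM and quiescent *SOD1* G93A astrocytes 7.35, 8.41 and 8.51 RPM. The genotypes did not overlap there, and the fold change of 0.65 ± 0.22 did not pass the limits. Activated astrocytes had 4.75 to 6.35 RPM in WT and 5.35 to 7.49 RPM in *SOD1* G93A. Quiescent WT microglia had 0 reads in each of 3 libraries and LPS microglia of both genotypes 0 to 2 reads, all under the 3 reads that a count of 0 allows, so no microglial difference was detectable at this depth.

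*Pparg*, the receptor of fat cells and of lipid-loaded macrophages, had few reads throughout. It was highest in quiescent WT microglia, with 33, 8 and 29 reads (3.25, 3.14 and 4.18 RPM), and had 4, 2 and 2 reads in WT LPS microglia. The conditions did not overlap, and the level fell by 2.40 ± 0.37 on the log2 scale. Scaled to depth, the pooled reads with LPS were 0.126 of those without (95% interval 0.0521 to 0.261). Leaving out any library of quiescent WT microglia took *Pparg* below the filter, so that the test could not be repeated there. With the replicate number as a block in limma the call was lost (adjusted p = 0.00123). Whether these numbers pair the samples is not known. *SOD1* G93A LPS microglia had 1, 6 and 1 reads, overlapping WT. Quiescent WT astrocytes had 1, 0 and 2 reads and activated ones 13, 7 and 9. The activated mean was 1.96 times the level that 3 reads in each quiescent library would give, with no counting error included. *SOD1* G93A astrocytes overlapped WT in both states, with 3, 0 and 1 reads when quiescent and 7, 4 and 5 when activated. Too few normalized counts kept *Pparg* out of the astrocyte fits. Per length, *Ppara* stood above *Pparg* in each astrocyte condition (1.31 against 0.0804 RPKM in quiescent WT cells), and *Pparg* stood above *Ppara* in quiescent WT microglia at 1.19 RPKM.

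**Figure D1:**
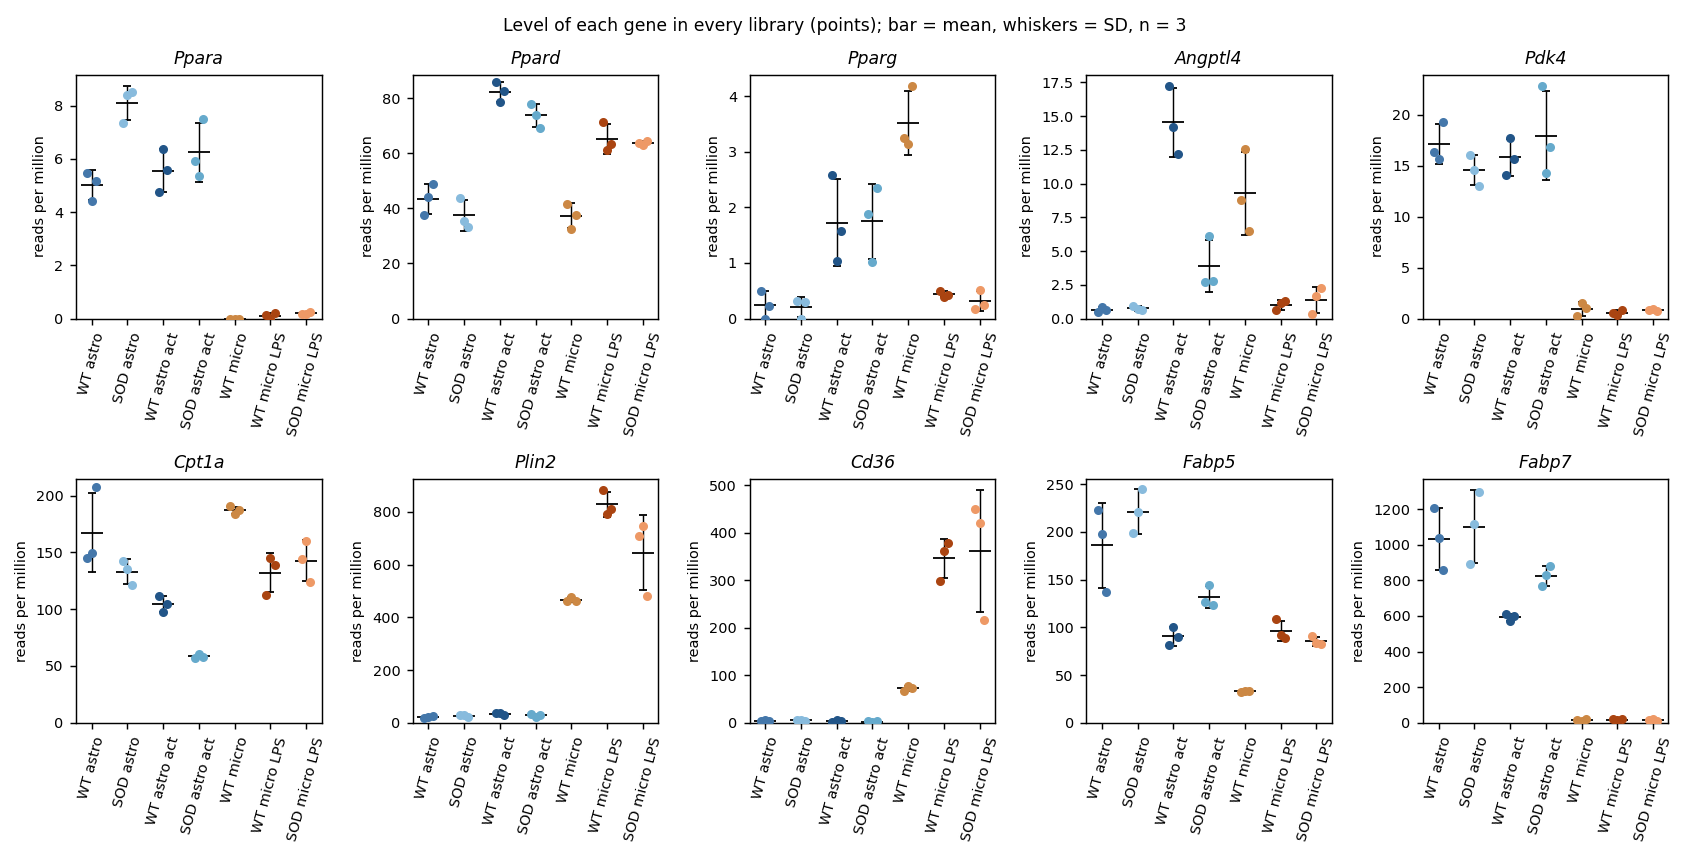
Level of each of the 10 genes in every library, in RPM on the y axis, with the 7 conditions on the x axis (astro, astrocytes; micro, microglia; SOD, *SOD1* G93A; act, activated). Points are libraries, the bar is the mean and the whiskers the SD of 3. *Angptl4* is highest in activated WT astrocytes and quiescent WT microglia, *Plin2* and *Cd36* in LPS microglia, and *Fabp7*, *Pdk4* and *Ppara* in astrocytes.

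*Angptl4* moved in opposite directions with activation in the 2 cell types. It had 1, 3 and 6 reads (0.496, 0.825 and 0.648 RPM) in quiescent WT astrocytes and 87, 96 and 70 reads (17.2, 14.2 and 12.2 RPM) in activated ones. In WT microglia it had 89, 32 and 45 reads (8.76, 12.6 and 6.48 RPM) when quiescent and 5, 6 and 6 reads (0.616, 1.18 and 1.28 RPM) after LPS. Activated astrocytes and quiescent microglia were thus the high conditions, they overlapped each other, and neither overlapped its opposite state. *SOD1* G93A LPS microglia had 2, 19 and 9 reads (0.338, 1.64 and 2.23 RPM), overlapping WT LPS microglia, and were not tested. The level rose by 4.12 ± 0.30 on the log2 scale in astrocytes and fell by 2.77 ± 0.35 in microglia. Since few reads lie behind the low groups, the pooled reads scaled to depth give the plainer measure. They were 21.5 times as high in activated as in quiescent astrocytes (95% interval 11.5 to 45.3). With LPS they were 0.112 of those without (0.0640 to 0.186).

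Activated *SOD1* G93A astrocytes had less *Angptl4* than activated WT ones, at 10, 24 and 6 reads (2.69, 6.11 and 2.81 RPM). All 3 lay below all 3 WT libraries and above every quiescent astrocyte library. The level was lower by 1.89 ± 0.27 on the log2 scale, and the pooled reads scaled to depth were 0.284 of those in WT (95% interval 0.198 to 0.397). The call was lost in limma without the intensity trend (adjusted p = 0.043) and when library 1 of activated WT astrocytes was left out, with a fold change of −1.76. Quiescent astrocytes of the genotypes had 16 reads in all against 10 and were not tested.

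*Cpt1a*, the outer membrane step of the carnitine shuttle, was present in both cell types and lowest in activated *SOD1* G93A astrocytes. Those libraries had 57.2, 60.3 and 57.6 RPM, and activated WT astrocytes had 112, 97.8 and 104 RPM. Quiescent WT astrocytes had 145, 149 and 207 RPM and quiescent *SOD1* G93A astrocytes 142, 135 and 121 RPM. The 3 libraries of activated *SOD1* G93A astrocytes were the lowest 3 of all 21. Their fold change against WT was −0.80 ± 0.08, with the smallest adjusted p of the 10 genes in that comparison (7.6e-07, limma), and it stayed under the fold limit. Activation of WT astrocytes gave −0.63 ± 0.14, with no overlap between the states. In quiescent astrocytes the genotypes did not overlap in RPM, while on the normalized counts of that comparison they did, with a fold change of −0.34 ± 0.15. In microglia the levels were 190.4, 184 and 187 RPM in quiescent WT cells and 113, 145 and 139 RPM after LPS, without overlap and with a fold change of −0.29 ± 0.11, and LPS microglia of *SOD1* G93A, at 144, 160.4 and 124 RPM, overlapped those of WT.

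*Pdk4*, the pyruvate dehydrogenase kinase most often used as a readout of PPAR activity, stood apart between the cell types, with overlapping conditions within each. The 12 astrocyte libraries had 13.1 to 22.8 RPM and every astrocyte condition overlapped its neighbours in order, while the microglial conditions had means of 0.580 to 0.925 RPM from 2 to 11 reads per library. No astrocyte comparison passed the limits, with fold changes of −0.25 ± 0.17, −0.09 ± 0.16 and 0.20 ± 0.17 in the comparisons of quiescent genotypes, of states and of activated genotypes. The groups overlapped in all 3, where the *Angptl4* libraries of activated and quiescent WT astrocytes did not.

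*Plin2*, the droplet coat protein that is itself stabilised by stored lipid, was mainly a microglial transcript. Quiescent WT microglia had 460.2, 478 and 462 RPM, WT LPS microglia 882, 793 and 809 RPM, and *SOD1* G93A LPS microglia 709.5, 746 and 481 RPM. The highest astrocyte library had 36.4 RPM. LPS libraries lay above quiescent ones throughout, and library 3 of *SOD1* G93A, the one with more microglial marker reads, lay just above the quiescent range. The level rose by 1.04 ± 0.07 on the log2 scale with LPS. That value also sat on the fold limit and lost its call with quantile normalization (0.74) and when library totals were used for scaling (0.83). *SOD1* G93A and WT LPS microglia did not overlap, with a fold change of −0.38 ± 0.17 that did not pass the limits and was −0.16 without library 3 of *SOD1* G93A.

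In astrocytes *Plin2* stood at 19.3, 20.3 and 24.3 RPM in quiescent WT cells and 35.9, 36.4 and 29.7 RPM in activated ones. The states did not overlap and the fold change was 0.69 ± 0.14, under the fold limit. *SOD1* G93A astrocytes had 27.8, 29.8 and 21.3 RPM when quiescent and 32.5, 22.7 and 28.1 RPM when activated. The genotypes overlapped in both states, with fold changes of 0.27 ± 0.17 when quiescent and −0.26 ± 0.13 when activated.

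*Cd36*, a scavenger receptor that takes up fatty acids and oxidised lipoproteins, was read mainly in microglia. Quiescent WT microglia had 66.8, 77.6 and 74.1 RPM, WT LPS microglia 299, 362 and 379 RPM, and *SOD1* G93A LPS microglia 450.2, 420.0 and 216 RPM. Every LPS library lay above every quiescent one, and the level rose by 2.46 ± 0.12 on the log2 scale. *SOD1* G93A and WT overlapped, since library 3 of *SOD1* G93A was the lowest of the 6 and the other two the highest. The fold change was 0.00 ± 0.27 with that library and 0.36 without it, and neither passed. Astrocyte conditions had means of 2.61 to 4.95 RPM that overlapped their neighbours in order.

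*Fabp5* and *Fabp7* encode fatty acid binding proteins that carry lipids through the cytoplasm, *Fabp7* being the form of radial glia and astrocytes. Per length *Fabp7* was the most abundant of the 10 genes in each astrocyte condition, at 828 RPKM in quiescent WT cells, where *Fabp5* had 52.1 RPKM. Quiescent WT astrocytes had 1208, 1037 and 859 RPM of *Fabp7* and activated ones 609, 570.2 and 598 RPM, without overlap. The fold change was −0.77 ± 0.11, under the fold limit. Activated *SOD1* G93A astrocytes had 769, 829 and 881 RPM, above all activated WT libraries, with a fold change of 0.52 ± 0.06 that was also under it. Quiescent *SOD1* G93A astrocytes, at 892 to 1298 RPM, overlapped quiescent WT ones. The 9 microglial libraries had 9.15 to 22.0 RPM of *Fabp7*, with no separation by LPS or genotype.

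*Fabp5* showed opposite orders of the states in astrocytes and microglia. In WT astrocytes it stood at 223, 198 and 137 RPM when quiescent and 81.2, 101 and 89.9 RPM when activated. In WT microglia it stood at 32.6, 33.7 and 33.3 RPM when quiescent and 109, 91.4 and 88.4 RPM after LPS. Neither pair of states overlapped. The level rose by 1.74 ± 0.10 on the log2 scale with LPS, and the astrocyte value was −0.99 ± 0.15, just under the fold limit. It passed without library 3 of quiescent WT astrocytes, the lowest of its condition (−1.17), without library 2 of activated WT astrocytes (−1.06), and with quantile normalization (−1.02) or library totals (−1.01). Activated *SOD1* G93A astrocytes had 127, 145 and 123 RPM, above all activated WT libraries, with a fold change of 0.58 ± 0.08. *SOD1* G93A cells had 198 to 245 RPM in quiescent astrocytes and 82.1 to 90.6 RPM in LPS microglia. The genotypes overlapped there, with fold changes of 0.25 ± 0.16 and −0.16 ± 0.11.

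**Figure D2:**
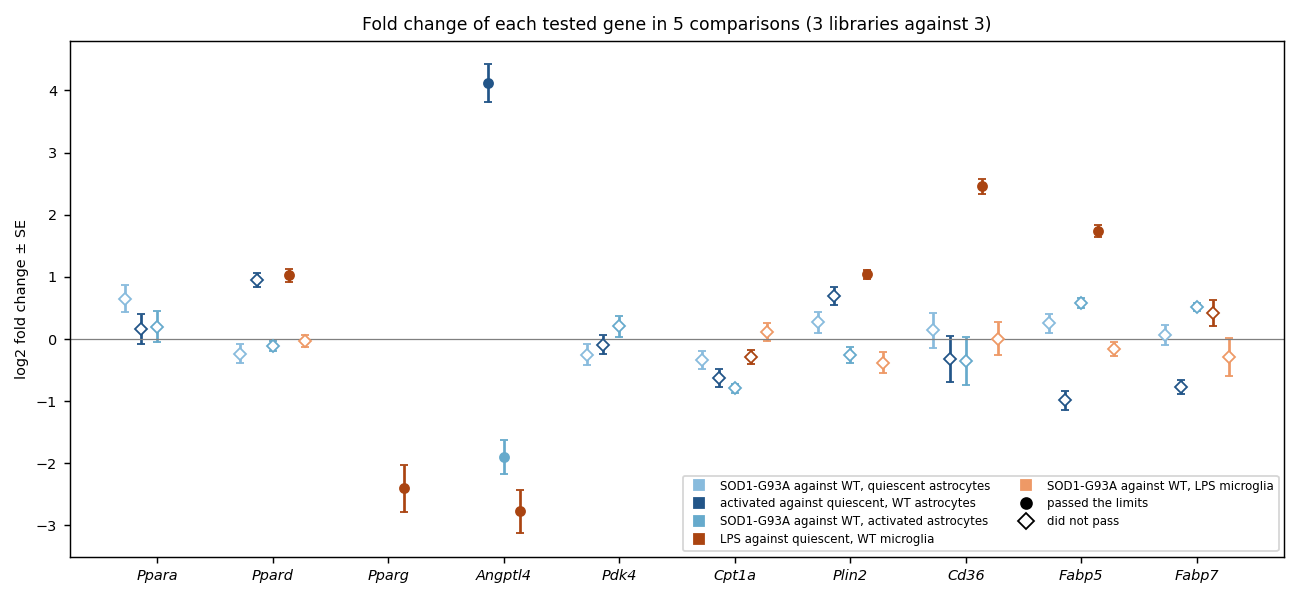
Fold change of each tested gene on the log2 scale (y axis) for the 10 genes (x axis) in 5 comparisons of 3 libraries with 3. Whiskers are SE, filled points passed the limits (adjusted p under 0.001 and more than 2-fold), open points were tested and did not. *Angptl4* lies at 4.12 in activated WT astrocytes, −1.89 between genotypes in activated astrocytes and −2.77 in LPS microglia.

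Counted over the comparisons, activation of WT astrocytes moved 1 of the 9 genes tested past the limits, *Angptl4*, where 11.5% of all 12336 genes tested passed (6% higher and 5.54% lower) and the states did not overlap in 50.9% of them. *Angptl4* reached the filter there through the activated libraries alone, with a mean of 70.9 normalized counts against 3.16. At an unadjusted p under 0.05 there were 6 of the 9, and 46.8% of all genes tested. LPS moved 6 of the 8 genes tested in WT microglia, 4 higher and 2 lower, where 20.8% of 10866 genes passed (10.2% higher and 10.6% lower) and 64.6% did not overlap. Both lower genes reached the filter through the quiescent libraries alone, *Angptl4* with a mean of 48.8 normalized counts against 6.29 and *Pparg* with 18.5 against 2.67. *Cpt1a* and *Fabp7* were the others tested. Between genotypes 1 of 9 passed in activated astrocytes, again *Angptl4*, where 0.645% of 12098 genes did (0.521% higher and 0.124% lower) and 24.1% did not overlap. The genotype comparisons of quiescent astrocytes and of LPS microglia called 0 of 8 and 0 of 6 genes in limma, and also 0 of 12271 (0%) and 0 of 10679 (0%) genes in all. There, 2 and 0 of the genes described here had an unadjusted p under 0.05, and DESeq2 and edgeR called 0 of them as well. Over all genes 1068 and 930.0 had an unadjusted p under 0.05, and DESeq2 called 7 and 2 and edgeR 0 and 0. The genotypes did not overlap in 14.6% and 18.2% of all genes there. Since the choice of the 10 genes used these comparisons, nothing is read from the shares.

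Activation could be compared between the cell types, with the limit that the agents and media differed, so cell type, agent and medium cannot be told apart. The Y chromosome transcript *Ddx3y* also differed between the states in WT microglia, as given below. The response of WT microglia to LPS differed from that of WT astrocytes to their factors in *Angptl4*, *Cd36*, *Fabp5* and *Fabp7* at an adjusted p under 0.05 in limma. These were 4 of the 7 genes that reached the filter in both cell types, *Angptl4* in each through its high state alone, where 43.2% of such genes passed, and 41.1% of all genes in the fit (19.3% higher and 21.8% lower). *Ppara* and *Pdk4* entered through the astrocyte libraries and are not counted. For *Ppard* the responses differed by 0.07 ± 0.17 (95% interval −0.28 to 0.43) and for *Plin2* by 0.35 ± 0.15 (0.03 to 0.67), the latter with a call without library 1 of quiescent WT astrocytes (0.43). The genotype difference, activated less quiescent astrocytes, passed in limma for 0 of the 8 genes that reached the filter in both states, where 0.254% of such genes passed and 0.252% of all genes in the fit (0.244% higher and 0.00814% lower). The 8 differences ran from −0.53 ± 0.23 for *Plin2* (95% interval −1.01 to −0.04) to 0.45 ± 0.18 for *Fabp7* (0.08 to 0.83). *Angptl4* lay under the filter when quiescent, entered through the activated libraries and is not counted. No other tool was run on these differences. Without library 3 of quiescent WT astrocytes 1 passed, *Cpt1a*, at −0.64.

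The wider pathway was described with 6 lists of 93 genes, 91 of which are in the tables, none of them among the 10. In activated WT astrocytes 7 of 77 tested list genes passed, 4 higher and 3 lower, where 11.5% of all genes tested did (6% higher and 5.54% lower). The median was −0.03 over the 77 and 0.01 over all genes tested. Nothing is read about the lists from such counts, and the genes that passed are described singly. In the list of droplet genes they were 4 of 17 tested, with a list median of 0.09. *Pnpla2*, which encodes the first lipase of the droplet, went from 43.2, 41.2 and 47.5 RPM to 96.5, 95.0 and 96.0 RPM (1.15 ± 0.10), and *Mgll*, the last lipase of the chain, rose by 1.20 ± 0.10. *G0s2*, an inhibitor of the *Pnpla2* product, went from 11.4, 10.2 and 5.29 RPM to 2.18, 2.66 and 1.57 RPM and fell by 1.90 ± 0.33. The call of *G0s2* was lost with edgeR (−1.88), TMM factors (−1.89), library totals (−1.93), no filter or no intensity trend. It was also lost without library 1 or 2 of quiescent WT astrocytes (−1.71 and −1.78) and without library 1, 2 or 3 of activated ones (−1.93, −2.05 and −1.72). *Lpin1*, an enzyme of triglyceride synthesis, fell by 1.13 ± 0.10.

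Outside the droplet list, activated WT astrocytes had more of the lipoprotein receptor *Vldlr*, at 82.6, 91.0 and 87.5 RPM against 20.3, 22.0 and 19.6 RPM (2.09 ± 0.10). *Pdp1*, a phosphatase that turns pyruvate dehydrogenase back on, rose by 1.51 ± 0.17, a call lost in limma without the intensity trend (adjusted p = 0.00103). The 22 genes of the carnitine shuttle and mitochondrial oxidation had a median of −0.05, with 9 at an unadjusted p under 0.05 where 46.8% of all genes tested were, and their most abundant, *Hadha*, had −0.40 ± 0.10. The 10 genes of peroxisomal oxidation had a median of 0.24, with 6 at an unadjusted p under 0.05 against the same share of all genes.

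With LPS 18 of 72 tested list genes passed in WT microglia, 7 higher and 11 lower, where 20.8% of all genes tested did (10.2% higher and 10.6% lower). The median was −0.24 over the 72 and 0.00 over all genes tested, and here too nothing is read about the lists from the counts. Uptake and activation genes went both ways. The acyl-CoA synthetases *Acsl1* (1.95 ± 0.11), *Acsl4* (1.28 ± 0.13) and *Acsl5*, the transporter *Slc27a4* and the binding protein *Fabp3* (1.61 ± 0.21) rose, 5 of the 11 tested in that list. *Lpl*, the lipoprotein lipase that the *Angptl4* product inhibits, went from 1439, 1546 and 1602 RPM to 144, 138 and 132 RPM (−3.25 ± 0.08), and the HDL receptor *Scarb1* fell by 1.29 ± 0.10. *Angptl4* and *Lpl* thus stood lower together in every LPS library of WT microglia.

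Of 22 tested genes of the carnitine shuttle and mitochondrial oxidation 3 fell with LPS, where 10.6% of all genes tested did, and the list median was −0.04. Among the 3 were *Hadh* (−1.94 ± 0.14) and *Ucp2*, a carrier of the inner membrane that went from 1545, 1750 and 1526 RPM to 418, 355 and 362 RPM. Of 10 tested genes of peroxisomal oxidation 3 fell, including the very long chain fatty acid transporter *Abcd2* (−3.78 ± 0.13) and *Crot* (−1.21 ± 0.15), and the list median was −0.75. Both *Pdk1* (−2.31 ± 0.13) and *Pdk2* (−1.89 ± 0.21), kinases that act on pyruvate dehydrogenase as the *Pdk4* product does, fell, 2 of 5 genes tested in their list. The 8 tested receptor partners and coregulators had a median of −0.24, with 3 at an unadjusted p under 0.05 where 61.6% of all genes tested were. In the other lists these were 11 of 11 for uptake and activation, 14 of 22 for mitochondrial and 9 of 10 for peroxisomal oxidation. They were 4 of 5 for the kinases and phosphatases of pyruvate dehydrogenase and 12 of 16 for droplet genes.

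In the droplet list 2 of 16 tested genes rose and 1 fell with LPS, where 10.2% and 10.6% of all genes tested did, and the list median was −0.11. *Hilpda*, an inhibitor of droplet lipolysis, went from 3.64, 1.96 and 3.03 RPM to 112, 92.2 and 91.8 RPM (5.26 ± 0.19). *Dgat2*, which completes triglyceride synthesis, went from 9, 3 and 5 reads to 75, 45 and 36 reads (3.20 ± 0.28). *Lpin1* fell by 1.45 ± 0.19, a call lost without library 1 of quiescent WT microglia (−1.40). The most abundant gene of the list, *Soat1*, which makes cholesterol esters, had a value of −0.26 ± 0.11.

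**Figure D3:**
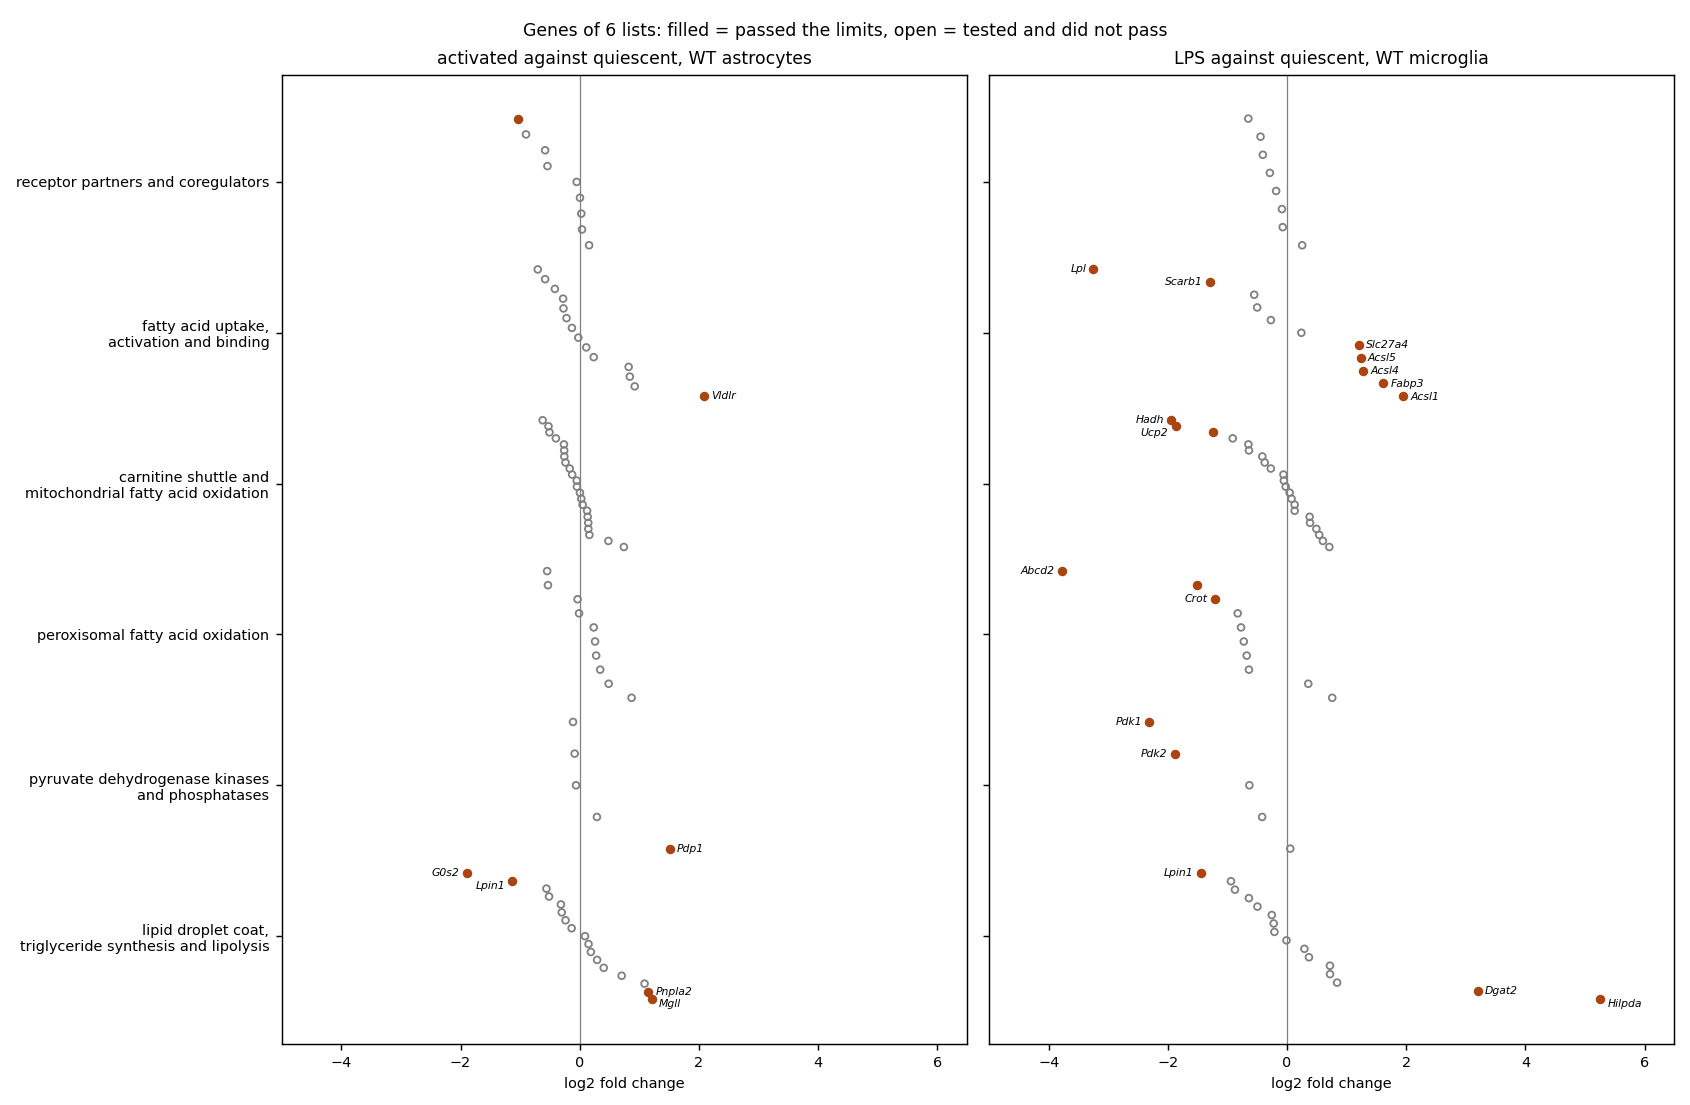
Fold change on the log2 scale (x axis) of each tested gene of 6 pathway lists (y axis), in WT astrocytes given the 3 factors (left) and WT microglia given LPS (right). Filled points passed the limits, most of them with their name, and open points were tested and did not pass. On the left 7 of 77 genes are filled and on the right 18 of 72, from *Abcd2* at −3.78 to *Hilpda* at 5.26.

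Between genotypes the lists held no gene past the limits in limma, with 0 of 76 in quiescent astrocytes, 0 of 74 in activated astrocytes and 0 of 72 in LPS microglia. DESeq2 and edgeR called 0 of them too, and 11, 25 and 11 genes had an unadjusted p under 0.05, as did 8.7%, 20.4% and 8.71% of all genes tested. The medians were 0.04, 0.03 and 0.09. The most abundant droplet gene of quiescent astrocytes, *Lpin1*, had 0.42 ± 0.10, and that of activated astrocytes, *Pnpla2*, 0.11 ± 0.08. *Lpl* gave the highest value of the lists in LPS microglia, 1.11 ± 0.40, with 198, 193 and 681 RPM in *SOD1* G93A against 144, 138 and 132 RPM in WT, so that library 3 of *SOD1* G93A stood far above the rest. That library had the lowest *Hilpda*, 34.4 RPM against 72.8 and 75.5 RPM, and the lowest *Cd36* and *Plin2* of its condition.

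Marker lists moved with activation of WT astrocytes. In limma 10 of 38 markers tested passed the limits, where 11.5% of all genes tested did (6% higher and 5.54% lower). Of the astrocyte markers 2 of 10 fell (*Aldoc* and *Hepacam*), 8 had an unadjusted p under 0.05 where 46.8% of all genes did, and the list median was −0.81. *Gfap* went the other way, from 369.5, 352 and 699 RPM to 969, 940.4 and 902 RPM (1.08 ± 0.22), and did not pass. The sum over the list, *Gfap* included, was 4992, 5413 and 6228 RPM when quiescent and 4543, 4566 and 4566 RPM when activated, with *Slc1a3* the most abundant. Of 7 tested oligodendrocyte lineage markers 2 fell (*Olig1* and *Olig2*), and the sum of that list went from 2956, 2883 and 2778 RPM to 1067, 1104 and 1043 RPM, with *Olig1* the most abundant and *Mog* at 0 in the quiescent cells. Neural progenitor markers had 2 of 5 lower, among them *Hes5*, and sums of 2021, 2057 and 2445 RPM against 2159, 2107 and 2264 RPM, led by *Nes*. The endothelial marker tested, *Flt1*, rose while *Cldn5* was at 0 in both states, and the sum went from 8.93, 9.90 and 13.4 RPM to 137, 148.5 and 153 RPM. Of 3 tested pericyte and fibroblast markers *Dcn* and *Lum* rose, and the sum went from 7.94, 9.35 and 15.1 RPM to 56.3, 52.2 and 45.7 RPM. Of 3 tested neuron markers *Tubb3* rose, with sums of 20.3, 17.0 and 18.2 RPM against 30.7, 40.8 and 33.6 RPM. The microglial sum was 154, 210.3 and 270.0 RPM against 184, 296 and 163 RPM, and border macrophage and monocyte markers summed to under 1 RPM in each of these libraries. The part of these shifts in the values of *Angptl4*, *Fabp7* and the droplet genes was not tested.

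Marker sums also differed between genotypes in quiescent astrocytes. Neuron markers summed to 11.3, 11.7 and 10.6 RPM in *SOD1* G93A against 20.3, 17.0 and 18.2 RPM in WT, led by *Tubb3*, and endothelial ones to 6.61, 7.45 and 6.99 RPM against 8.93, 9.90 and 13.4 RPM, led by *Flt1* with *Cldn5* at 0. Pericyte and fibroblast markers summed to 7.77, 7.58 and 7.29 RPM against 7.94, 9.35 and 15.1 RPM, led by *Pdgfrb*, and progenitor markers to 1922, 1809 and 1771 RPM against 2021, 2057 and 2445 RPM, led by *Nes*. These 4 sums were lower in every *SOD1* G93A library than in every WT one, and that of the oligodendrocyte lineage was higher, at 3421, 3177 and 3226 RPM against 2956, 2883 and 2778 RPM, led by *Olig1*. Sums of microglial markers (338, 359 and 239 RPM against 154, 210.3 and 270.0 RPM, led by *Csf1r*) and of astrocyte markers (5135, 4740 and 4158 RPM against 4992, 5413 and 6228 RPM, led by *Slc1a3*) overlapped, and border macrophage and monocyte markers stayed under 1 RPM. Single markers had fold changes of −1.19 ± 0.24 for *Gfap*, −1.12 ± 0.20 for *Tubb3* and −0.92 ± 0.19 for *Sox10*, chosen after their values were seen. *Gfap* and *Tubb3* were the lowest of their lists. The 10 astrocyte markers tested had a median of −0.27 and values up to 0.29. The 3 neuron markers tested had a median of −0.86 and values up to 0.17. In the list of *Sox10* the median was 0.14 and *Cspg4* had 0.37 ± 0.19. The 9 microglial markers tested all had values above 0, from 0.33 to 1.10 ± 0.38 (*Tmem119*), and 5 of them had an unadjusted p under 0.05. Of 36 markers tested 0 passed the limits in limma, DESeq2 or edgeR, and 14 had an unadjusted p under 0.05 in limma, as did 8.7% of all genes. The part of these shifts in the values of *Ppara*, *Cpt1a* and the other genes between these genotypes was not tested.

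Between genotypes in activated astrocytes marker sums differed as well. Pericyte and fibroblast markers summed to 33.9, 38.7 and 36.1 RPM in *SOD1* G93A against 56.3, 52.2 and 45.7 RPM in WT, led by *Lum*. Endothelial markers summed to 118, 117 and 111.5 RPM against 137, 148.5 and 153 RPM, nearly all of it *Flt1*, with *Cldn5* and *Cdh5* at 0. Neuron markers summed to 29.6, 23.4 and 25.3 RPM against 30.7, 40.8 and 33.6 RPM, led by *Tubb3*, and progenitor markers to 1906, 1918 and 2046 RPM against 2159, 2107 and 2264 RPM, led by *Nes*. None of the sums of these 4 lists overlapped between the genotypes. Sums of astrocyte markers (4484, 4441 and 4526 RPM against 4543, 4566 and 4566 RPM) did not overlap either, while those of the oligodendrocyte lineage (1054, 1014 and 1079 RPM against 1067, 1104 and 1043 RPM) and of microglia (227, 162 and 169 RPM against 184, 296 and 163 RPM) did. Single markers had fold changes of −1.07 ± 0.26 for *Dcn*, −0.90 ± 0.15 for *Sox10*, −0.57 ± 0.09 for *Pdgfra*, 0.42 ± 0.07 for *Aqp4* and 0.71 ± 0.18 for *Mbp*, chosen after their values were seen. Their lists went both ways, with medians of 0.08 for astrocytes, −0.14 for pericytes and fibroblasts and 0.06 for the oligodendrocyte lineage. In the list of *Aqp4*, *Gfap* had −0.33 ± 0.06 and *Sox9* −0.24 ± 0.06. In the list of *Dcn*, *Pdgfrb* had 0.15 ± 0.20. Of 37 markers tested 0 passed the limits in limma, DESeq2 or edgeR, and 16 had an unadjusted p under 0.05 in limma, as did 20.4% of all genes. The part of these shifts in the values of *Angptl4*, *Cpt1a*, *Fabp5* and *Fabp7* between these genotypes was not tested.

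In WT microglia 18 of 35 markers tested passed the limits with LPS in limma, where 20.8% of all genes tested did (10.2% higher and 10.6% lower). Of the microglial markers 7 of 10 fell (among them *C1qa*, *Csf1r*, *Cx3cr1*, *P2ry12*, *Tmem119* and *Trem2*). The sum of that list went from 10120, 10560 and 10010 RPM to 3271, 3263 and 3318 RPM, with *Csf1r* and then *Itgam* the most abundant and none at 0. Of the oligodendrocyte lineage list *Cspg4* and *Mbp* fell, 2 of 4 tested, and the sum went from 1317, 1343 and 1359 RPM to 104.5, 103 and 110.0 RPM, led by *Cspg4*. Among the progenitor markers *Nes* fell, with sums of 930.2, 913.5 and 856 RPM against 121, 119 and 129.9 RPM. Astrocyte markers had 2 of 9 higher (*Gja1* and *Slc1a2*), and their sum stayed between 155 and 233 RPM. *Kdr* and *Pecam1* rose and *Flt1* fell among the endothelial markers, and *Dcn* rose among those of pericytes and fibroblasts. The endothelial sum went from 67.0, 75.3 and 75.1 RPM to 45.6, 55.9 and 50.7 RPM and that of pericytes and fibroblasts from 8.07, 3.92 and 4.18 RPM to 17.5, 20.6 and 15.0 RPM. Of 3 tested markers of border macrophages and monocytes *Ccr2* and *Ly6c2* rose, while *Mrc1*, the most abundant of that list in quiescent cells, had −2.88 ± 0.68 and did not pass. Their sums were 4.53, 6.67 and 7.64 RPM against 12.4, 13.9 and 13.7 RPM. Neuron markers were too low to be tested, with sums of 2.16 to 3.42 RPM. The part of these shifts in the values of *Cd36*, *Lpl* and the other genes was not tested.

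Between genotypes in LPS microglia the sum of the microglial markers was 3699, 3572 and 5268 RPM in *SOD1* G93A against 3271, 3263 and 3318 RPM in WT, led by *Csf1r* and by *Itgam*, so all 3 libraries lay above WT and not library 3 alone. The oligodendrocyte lineage sum was also higher without overlap, at 149, 152 and 248 RPM against 104.5, 103 and 110.0 RPM, led by *Cspg4*. Sums were lower without overlap for border macrophages and monocytes (9.97, 7.87 and 7.92 RPM against 12.4, 13.9 and 13.7 RPM, led by *Ccr2*) and for pericytes and fibroblasts (13.01, 14.17 and 9.89 RPM against 17.5, 20.6 and 15.0 RPM, led by *Pdgfrb* and by *Dcn*). Those of astrocytes (183, 229 and 139 RPM against 199.5, 158 and 233 RPM), endothelial cells (49.0, 58.0 and 24.7 RPM against 45.6, 55.9 and 50.7 RPM), progenitors (127, 143 and 127 RPM against 121, 119 and 129.9 RPM) and neurons (2.20, 2.51 and 0.742 RPM against 2.71, 2.16 and 3.42 RPM) overlapped. Of 33 markers tested 0 passed the limits in limma, DESeq2 or edgeR, and 6 had an unadjusted p under 0.05 in limma, as did 8.71% of all genes. The part of these shifts in the values of *Plin2*, *Cd36* and *Lpl* between these genotypes was not tested.

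Transcripts of the sex chromosomes also differed between conditions, and are named after their values were seen. *Ddx3y*, on the Y chromosome, had 22.0 to 24.5 RPM in quiescent WT microglia and 0.392 to 1.07 RPM in WT LPS microglia. In activated astrocytes it had 33.2 to 41.8 RPM in WT and 15.5 to 18.1 RPM in *SOD1* G93A, and in quiescent ones 27.8 to 33.0 RPM and 13.1 to 16.1 RPM. *Xist*, read from the inactive X chromosome, had 263 to 878 RPM in quiescent WT astrocytes and 1154 to 3466 RPM in quiescent *SOD1* G93A astrocytes. When activated these had 428 to 524 RPM and 833 to 1347 RPM. In microglia *Xist* had 65.9 to 96.7 RPM in quiescent WT cells, 116 to 171 RPM in WT after LPS and 138 to 189.5 RPM in *SOD1* G93A after LPS, where *Ddx3y* had 0.495 to 0.778 RPM. The part of the sex of the donor mice in the values of *Ppara*, *Angptl4*, *Cpt1a*, *Cd36* and the other genes was not tested.

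The genes most like each of 7 of the 10 were named by Pearson r of log2(RPM + 1) over the 21 libraries, which fall into 2 cell types and differ in depth, among 9922 or 9923 genes. For *Angptl4* they were *Slc2a3* (0.895), *Gng2* (0.883) and *Sfxn3* (0.883), and for *Cpt1a* *Rad50* (0.925), *Nol4l* (0.899) and *Igsf8* (0.884). For *Fabp5* they were *Ap3m2* (0.949), *Mapk7* (0.944) and *Zbtb5* (0.937). Genes that separate the cell types had partners with r above these, such as *Slc7a8* (0.996) for *Plin2*, *Ncf4* (0.997) for *Cd36*, *Cacng7* (0.993) for *Pdk4* and *Mtss1l* (0.997) for *Fabp7*. Among the 10 genes themselves *Plin2* and *Cd36* had r = 0.974, and *Pdk4* and *Fabp7* 0.976. *Plin2* had −0.98 with *Fabp7* and −0.978 with *Pdk4*, and *Angptl4* had −0.04 with *Plin2*.

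Promoter windows from RefSeq on GRCm38.p6, 300 bases long, were at hand for 8 of the 10 genes in 10 windows, without *Angptl4* and *Fabp5*. A PPAR and its partner receptor are known to bind repeated half-sites with the letters AGGTCA. On either strand this half-site was present in the windows of *Cpt1a*, *Plin2*, *Fabp7* and *Cd36* and in 2 of 3 windows of *Pparg*, against 16.3% of 32851 windows of all genes. The letters AGGTCANAGGTCA were in 0 of the 10 windows and in 13 of all windows. With the fourth base of each half-site free (AGGNCANAGGNCA) they were in 0 and in 125. A match is not a bound site, and its absence says only that these letters are not in the window. The windows of *Plin2* (chr4:86670010-86670309, minus strand) and *Cd36* (chr5:17835847-17836146, minus strand) are shown as examples of where the letters lie, picked for holding the half-site and for a rise with LPS. The window of *Ppard*, which rose too, has no half-site, and *Pparg*, which fell, has it in 2 of 3. In both sequences the half-site lies on the opposite strand and is in capitals.
*Plin2*: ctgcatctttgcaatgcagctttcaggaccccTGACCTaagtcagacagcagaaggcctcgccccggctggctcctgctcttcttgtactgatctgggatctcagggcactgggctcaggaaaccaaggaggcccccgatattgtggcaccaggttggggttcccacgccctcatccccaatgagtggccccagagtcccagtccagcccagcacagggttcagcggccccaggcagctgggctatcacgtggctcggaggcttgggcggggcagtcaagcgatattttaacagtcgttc
*Cd36*: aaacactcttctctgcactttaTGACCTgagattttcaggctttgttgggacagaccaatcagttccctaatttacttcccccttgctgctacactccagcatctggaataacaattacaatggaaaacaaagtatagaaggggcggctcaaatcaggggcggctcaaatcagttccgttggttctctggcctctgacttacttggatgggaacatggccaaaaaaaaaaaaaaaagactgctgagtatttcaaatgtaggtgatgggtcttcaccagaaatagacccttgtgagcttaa

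Positions are those of GENCODE M21 on GRCm38. *Ppara* lies on chromosome 15 (85734983 to 85802819), *Ppard* on 17 (28232700 to 28301474), *Pparg* on 6 (115360951 to 115490399) and *Pdk4* also on 6 (5483351 to 5496309). *Angptl4* lies on 17 (33773750 to 33781830), *Cpt1a* on 19 (3322334 to 3385733), *Plin2* on 4 (86648386 to 86670060) and *Cd36* on 5 (17781690 to 17888801). *Fabp5* lies on 3 (10012548 to 10016607) and *Fabp7* on 10 (57784881 to 57788450). The values are sums over all exons of a gene, and no isoform was measured.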

How the data were processed

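RNA-seq values of cultured astrocytes and microglia were taken from the tables that the authors deposited. Per the labels, libraries were enriched for polyA RNA and strand-specific, and the submitters' processing notes name STAR, RSEM, DESeq2 and the build mm10. The signal values that the authors deposited for each library in 6 tables are normalized counts, made by dividing reads by size factors specific to the table. The authors' comparison columns (average level, fold change and its uncertainty, statistic, raw and corrected p) were not used. The steps of the values gave whole reads for 100.0% of 878796 values (tolerance 0.001 reads), identical in 15 of 15 repeats of a library in another table. Each comparison was fitted within 1 table, since tables were normalized separately. RPM and RPKM came from the recovered reads. The table that mixes genotype with LPS served only for this check.

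Comparisons used limma 3.58.1 with an intensity trend in R 4.3.3 on log2(normalized count + 1), with Benjamini-Hochberg adjustment over all genes tested. Differences between 2 comparisons were fitted on 12 libraries from 2 tables, each effect being taken within its own table. Tests were tried on simulated data first. Alternatives were DESeq2 1.42.0 and edgeR 4.0.16 on the recovered reads, other pseudocounts, filters, scalings (quantile, TMM) and thresholds, no trend, the replicate block and leaving out each library. Scaling by library totals was chosen after seeing the data. List genes are named as the 3 passing genes of each list and comparison that rose most, the 3 that fell most, and the most abundant. *Acsl5* and *Slc27a4* with LPS, *Lpl* and *Hilpda* between genotypes, *Cpt1b*, *Ddx3y* and *Xist* were picked once their values had been seen. Some genes of the lists are not reported here by name. The 10 genes, the pathway lists and 8 lists of cell type markers were chosen with earlier results of these data known. Exon lengths and positions are those of GENCODE M21, matched to 23376 symbols and not to 1035. The annotation behind the authors' counts is not given in the sources used here.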

Additional observations from a re-analysis of the deposited data

Results flagged for a closer look

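In 4 genes the response to activation differed between the cell types in the test of the difference itself, LPS response of WT microglia less the response of WT astrocytes to their 3 factors (limma, 12 libraries, log2 scale). These were 4 of the 7 genes that reached the filter in both cell types, where 43.2% of such genes passed, so the count is not a result about the 10 genes. The genes were chosen with these values known, and the differences are given as a description. *Angptl4* gave −6.89 ± 0.47, with a fall in microglia and a rise in astrocytes, and reached the filter in each cell type through its high state alone (means of 3.16 normalized counts in quiescent astrocytes and 6.29 in LPS microglia). *Fabp5* gave 2.72 ± 0.20, *Cd36* 2.78 ± 0.38 and *Fabp7* 1.18 ± 0.24. For *Fabp7* and *Cd36* the level of one cell type was low, with 9.15 to 22.0 RPM of *Fabp7* in microglia and 1.78 to 5.91 RPM of *Cd36* in astrocytes. Agent, medium and cell type changed together in these differences and cannot be told apart. The Y chromosome transcript *Ddx3y* also changed with state in WT microglia, from 22.0 to 24.5 RPM when quiescent to 0.392 to 1.07 RPM after LPS. In WT astrocytes it had 27.8 to 33.0 RPM when quiescent and 33.2 to 41.8 RPM when activated. The part of the sex of the donor mice in these differences was not tested.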

How the results depend on the processing

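Counts are limma's unless another tool is named, and the cause of each change was not tested except where stated. In activated against quiescent WT astrocytes the genes called among the 10 were 0 with at least 10 in every library, since *Angptl4* was then not tested, 2 with quantile normalization or library totals, and 6 at an adjusted p under 0.05 with any fold, which also gave 30 list genes and 4722 genes in all. Leaving out each library gave 1 to 3 of the 10, 5 to 8 list genes and 1087 to 1547 genes in all. Between genotypes in activated astrocytes limma without the trend called 0 of the 10 and 1 gene in all. An adjusted p under 0.05 gave 123 genes in all with the fold limit, and 4, 12 and 879 with any fold among the 10, the lists and all genes. Leaving out each library gave 0 to 1 of the 10 and 67 to 81 genes in all. With LPS the any-fold limit gave 46 list genes and 6185 genes in all, and leaving out each library 4 to 6 of the 10, 17 to 18 list genes and 1991 to 2334 genes in all. Between genotypes in quiescent astrocytes DESeq2 called 7 genes in all, and the limits at an adjusted p under 0.05 gave 4 with the fold limit and 7 without. In LPS microglia these were 2, 1 and 1. Among the differences of effects, leaving out each library gave 0 to 1 of the 10 for genotype and 4 to 5 for activation.

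Values that changed sign were all of genes not called. Leaving out a library gave, between genotypes in quiescent astrocytes, −0.053 to 0.19 for *Fabp7*, −0.024 to 0.30 for *Cd36* and −0.083 to 0.35 for *Dbi*. In activation of WT astrocytes it gave −0.17 to 0.020 for *Pdk4*. Between genotypes in activated astrocytes it gave −0.64 to 0.028 for *Cd36* and −0.0023 to 0.19 for *Pdk2*. Between genotypes in LPS microglia it gave −0.013 to 0.23 for *Cpt1a*, −0.057 to 0.020 for *Ppard*, −0.60 to 0.044 for *Fabp7*, −0.20 to 0.36 for *Cd36*, −0.14 to 0.16 for *Acaa1a* and −0.013 to 0.18 for *Soat1*, and library totals gave −0.0014 for *Cd36*. The difference of activation effects was −0.72 to 0.39 for *Pdk4*, which lay under the filter in microglia, with 0.031 under quantile normalization, and −0.032 to 0.19 for *Ppard*. Library totals shifted the median of all genes by −0.21 with LPS, so a value under that scaling reads against −0.21. Same-number libraries did not deviate together in every pair (r of −0.4, 0.0587 and −0.436 between genotypes in quiescent astrocytes, and −0.0718 to 0.0562 in the other comparisons). In quiescent astrocytes depth rose from library 1 to library 3 in WT and fell in *SOD1* G93A. Library 1 of *SOD1* G93A and library 3 of WT, the deepest of each genotype, had r = 0.522. Such r values cannot decide whether the replicate numbers pair the samples. With the replicate block 0, 1, 1, 5 and 0 of the 10 were called in the comparisons of quiescent genotypes, WT astrocyte states, activated genotypes, LPS and LPS genotypes, where 0, 1423, 100.0, 2201 and 0 genes in all were. The call of *Pparg* with LPS was lost under the block (adjusted p = 0.00123), and the differences of effects gave 0 and 4 of the 10. Depth limits the genes with few reads, *Angptl4*, *Pparg* and *Pdk4* and *Ppara* in microglia.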

Other observations

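*Cpt1b*, the muscle form of the carnitine shuttle enzyme, was named after its values were seen. It had 0 reads in 17 of the 21 libraries, among them all 9 of microglia, and 19, 23, 24 and 13 reads in library 3 of quiescent WT astrocytes, library 3 of quiescent *SOD1* G93A astrocytes and libraries 2 and 3 of activated WT astrocytes. Partner libraries of those conditions had 0 reads at depths of 2016139 to 9526331.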
